A study of Mus musculus with 37 samples.

Results

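The genes described are 8 genes of antigen presentation by MHC class II: H2-Aa, H2-Ab1, H2-Eb1, Cd74, H2-DMa, H2-DMb1, H2-DMb2 and Ciita. They were taken by symbol from a table of 23947 genes, and all 8 have a row in it. The table holds FPKM (fragments relative to transcript length and to all mapped fragments) for 37 single cells that carry the label of adipose tissue macrophages. The cells came from the epididymal fat of male C57BL/6J mice fed a high-fat diet, with 60% of its energy from fat, 20% from carbohydrate and 20% from protein, after collagenase digestion for 30 min, sorting, and capture on a Fluidigm C1 instrument with Nextera XT libraries of polyadenylated RNA. All 37 cells share these labels and form 1 group with no control group. The labels tie no cell to an animal, so the cells count as 1 sample, and every value below describes these cells with no test between conditions. The sources used here give neither the age of the mice nor the sort gate.

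MHC class II molecules are pairs of an alpha and a beta chain that show peptides from taken-up material to CD4+ T cells. In the mouse, H2-Aa and H2-Ab1 encode the 2 chains of I-A, and H2-Eb1 encodes the beta chain of I-E. C57BL/6 mice carry a haplotype that makes no alpha chain of I-E, so H2-Eb1 is transcribed there without a partner for its product. Cd74 is the invariant chain, which holds the binding groove shut and guides the new molecule to endosomes, where cathepsin S trims it. H2-DM, made of H2-DMa with H2-DMb1 or H2-DMb2, then exchanges the remnant of the invariant chain for a peptide. Ciita is the coactivator that switches these genes on, through the factors RFX, CREB and NF-Y bound to the X and Y boxes of their promoters. Macrophages of fat are among the class II bearing cells of that tissue.

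Promoter windows from RefSeq (build GRCm38.p6) were given for 5 of the 8 genes, H2-Aa, H2-Eb1, H2-DMa, H2-DMb1 and H2-DMb2, but not for H2-Ab1, Cd74 and Ciita. The expression values rest on mm9, so these positions are not joined to any coordinate of the data. The sequences below are shown because the 4 genes share the motif TGATTGG, each preceded by 1 of a pair of other short motifs, while their levels in the cells differ widely. Each runs 5′ to 3′ on the strand of its gene, upstream of the annotated start, and the capitals mark matches to AACNGATG or TGACGTCA and to TGATTGG.
H2-Aa: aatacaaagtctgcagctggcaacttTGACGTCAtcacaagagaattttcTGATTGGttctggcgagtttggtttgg
H2-Eb1: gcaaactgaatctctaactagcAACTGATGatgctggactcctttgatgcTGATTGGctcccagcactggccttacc
H2-DMb1: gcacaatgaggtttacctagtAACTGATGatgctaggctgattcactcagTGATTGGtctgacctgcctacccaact
H2-DMb2: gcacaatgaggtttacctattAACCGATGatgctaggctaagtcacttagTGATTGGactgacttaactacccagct

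The H2-Aa stretch lies at chr17:34287847-34287923 on the minus strand. On the plus strand lie H2-Eb1 at chr17:34305756-34305832, H2-DMb1 at chr17:34153078-34153154 and H2-DMb2 at chr17:34145107-34145183. AACNGATG is the core of the X box, TGACGTCA the cyclic AMP response element, and TGATTGG the Y box, which holds the reverse complement of the CCAAT motif of NF-Y. The letters were chosen after these windows were read, and both strands were searched. TGATTGG began 50 bases before the start of H2-Aa, 61 before H2-Eb1, 63 before H2-DMb1 and 92 before H2-DMb2, with 16, 20, 21 and 21 bases between the motifs. Over 32851 windows of 250 bases upstream of a start, AACNGATG was found in 1.98%, TGACGTCA in 1.55% and TGATTGG in 7.23%. Either of the first followed by TGATTGG within 30 bases was found in 14 windows (0.0426%), among them these 4 genes and H2-Eb2. The H2-DMb1 and H2-DMb2 stretches were identical at 67 of 77 bases (87.0%), against 21 to 25 of 77 for every other pair shown. Neither of the 2 windows of H2-DMa held a match. A match describes the letters only.

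The cells held 1224 to 3204 genes at 1 FPKM or more (median 1824), and FPKM sums of 225528 to 1841666. Fragment totals were not used here, so depth is unknown, and an exact 0 can be a failed estimate. Cells 7 and 27 held 7 and 8 of 8 fibroblast markers, no other cell more than 1, and their Lyz2, a lysozyme of myeloid cells, stood at 34.7 and 33.97 FPKM against a median of 3615. Cell 18 had the lowest values of the macrophage markers C1qb (4.62 FPKM) and Emr1 (0.126 FPKM) and the highest of Batf3 (843 FPKM), a factor of dendritic cells. Of its other macrophage markers, Csf1r (0.390 FPKM), C1qa (2.31 FPKM) and C1qc (1.63 FPKM) each ranked 2 from the lowest. Fcgr1 and Mertk were listed at 0. Its Tyrobp, Cd14, Cd68, Lyz2 and Fcer1g, also macrophage markers, stood at 2302, 1865, 1127, 2259 and 941 FPKM. The labels call all 3 macrophages, and several results are given with and without them. The 7 cells 2, 7, 11, 15, 17, 24 and 26 had the highest 10th percentile of values above 0, a stand-in for what 1 fragment is worth. Cells 0 to 19 and cells 20 to 36 are also given apart as 2 putative parts, which the labels do not name. Without cells 7 and 27, the mean correlation between cells in their low-value genes was 0.062 within these parts and 0.0088 between them, both near 0. What the parts are is unknown.

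The chains of I-A, H2-Eb1 and Cd74 were at 1 FPKM or more in all 37 cells. Among all 23947 genes, 0.359% were. Cd74 had the fourth highest median of the table, H2-Ab1 ranked 10, H2-Aa 12 and H2-Eb1 26. The medians of Cd74, H2-Ab1 and H2-Aa were above 1000 FPKM, as were those of 0.1% of all genes. Cd74 was among the 10 most abundant genes of a cell in 22 cells, H2-Aa and H2-Ab1 in 17 each, and H2-Eb1 in 1. These 4 genes made up 71.1% to 100.0% of the FPKM of all 8 genes in a cell (median 98.1%).

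Cd74 ran from 37.9 FPKM in cell 7 through a median of 5669.5 to 33723 in cell 24. H2-Ab1 ran from 12.7 FPKM in cell 35 through 3349.8 to 14938 in cell 18. H2-Aa ran from 7.29 FPKM in cell 32 through 3203 to 21819 in cell 9. H2-Eb1, the orphan beta chain, ran from 2.60 FPKM in cell 32 through 988 to 7726 in cell 15. The quartiles were 2653 and 8684 FPKM for Cd74, 1651 and 6247 for H2-Ab1, 658 and 5073 for H2-Aa, and 261 and 1868 for H2-Eb1. Neighbouring genes in the order of the medians therefore had overlapping interquartile ranges. The 2 cells with fibroblast genes were low throughout: Cd74 stood at 37.9 and 57.4 FPKM, H2-Ab1 at 22.1 and 44.0, H2-Aa at 30.7 and 32.5, and H2-Eb1 at 9.66 and 12.7, in cells 7 and 27. Of the other 35 cells, 34 lay above both for Cd74, 33 for H2-Ab1, 32 for H2-Aa and 30 for H2-Eb1. Without them the medians were 6007, 3441, 3308 and 1377 FPKM in the same order. In cells 0 to 19 and cells 20 to 36 the medians were 5015 and 6332 FPKM for Cd74, 3074 and 4263 for H2-Ab1, 2977 and 3203 for H2-Aa, and 979 and 1377 for H2-Eb1.

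**Figure D1:**
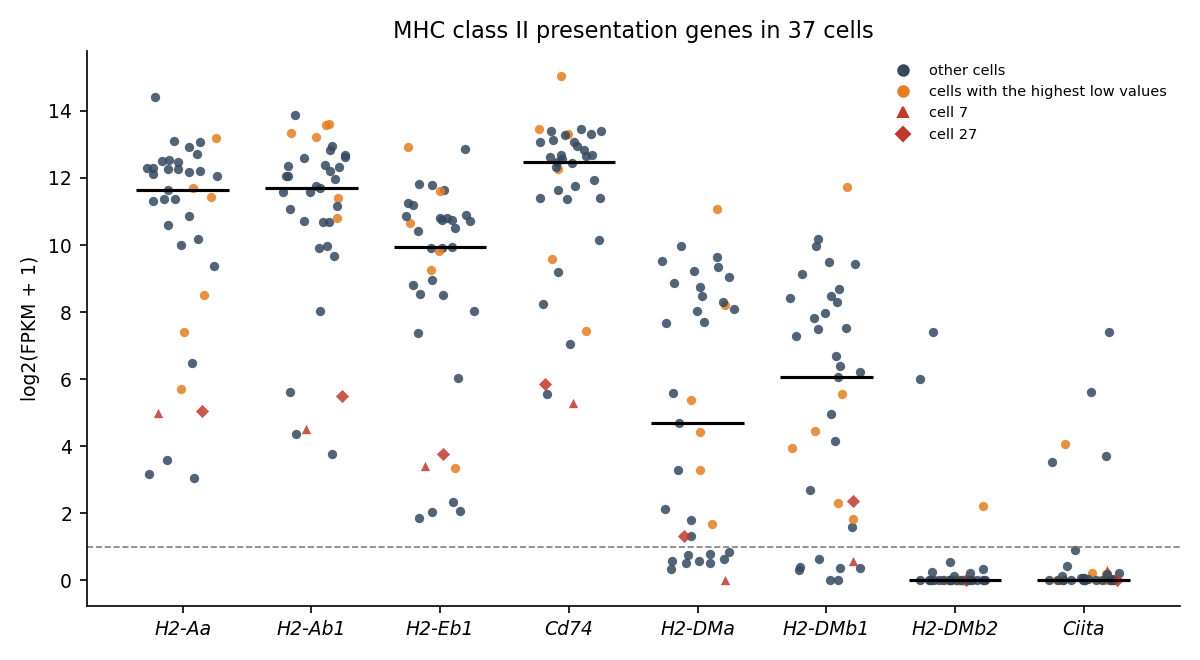
Level of each gene in the 37 cells as log2(FPKM + 1). Each point is a cell, the bar is the median, with a dashed line at 1 FPKM. Cells 7 and 27 (red) and the 7 cells with the highest low values (orange, where not red) are set apart. H2-Aa, H2-Ab1, H2-Eb1 and Cd74 lie above the line in every cell, and Ciita in 5.

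The 8 genes took a median of 4.25% of the FPKM sum of a cell, a share that does not depend on how a cell was scaled. The lowest share was 0.0187% in cell 27 and the highest 9.95% in cell 18, with quartiles of 1.76% and 7.08%. The share was 5% or more in 17 cells and under 1% in 7. Those were cells 27 (0.0187%), 7 (0.0217%), 28 (0.0410%), 32 (0.0862%), 35 (0.115%), 16 (0.259%) and 11 (0.557%). In the last 5, Lyz2 was 8489, 4838, 929.7, 5203 and 8377 FPKM in cells 28, 32, 35, 16 and 11, and C1qb, a chain of complement C1q, was 3459, 912, 2255, 2684 and 3634 FPKM. Cell 35 lay below the lower quartile of all cells for Lyz2 (1714 FPKM) and cell 32 below that for C1qb (2085 FPKM), and cell 32 had the lowest C1qa (0.715 FPKM) and C1qc (1.42 FPKM) of all. Over the 12 macrophage markers, 0, 4, 2, 6 and 1 lay below the lower quartile of the 37 cells in cells 28, 32, 35, 16 and 11, against 8 in cell 7 and 10 in cell 27. The lower quartile of Fcgr1 and of Mertk was 0 FPKM, so no cell could count as low for them. Cell 28 had both listed at 0, and its Csf1r stood at the lower quartile (10.3 FPKM). The median share was 4.11% in cells 0 to 19, 4.93% in cells 20 to 36, 4.93% without cells 7 and 27, and 4.11% without cell 18.

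**Figure D2:**
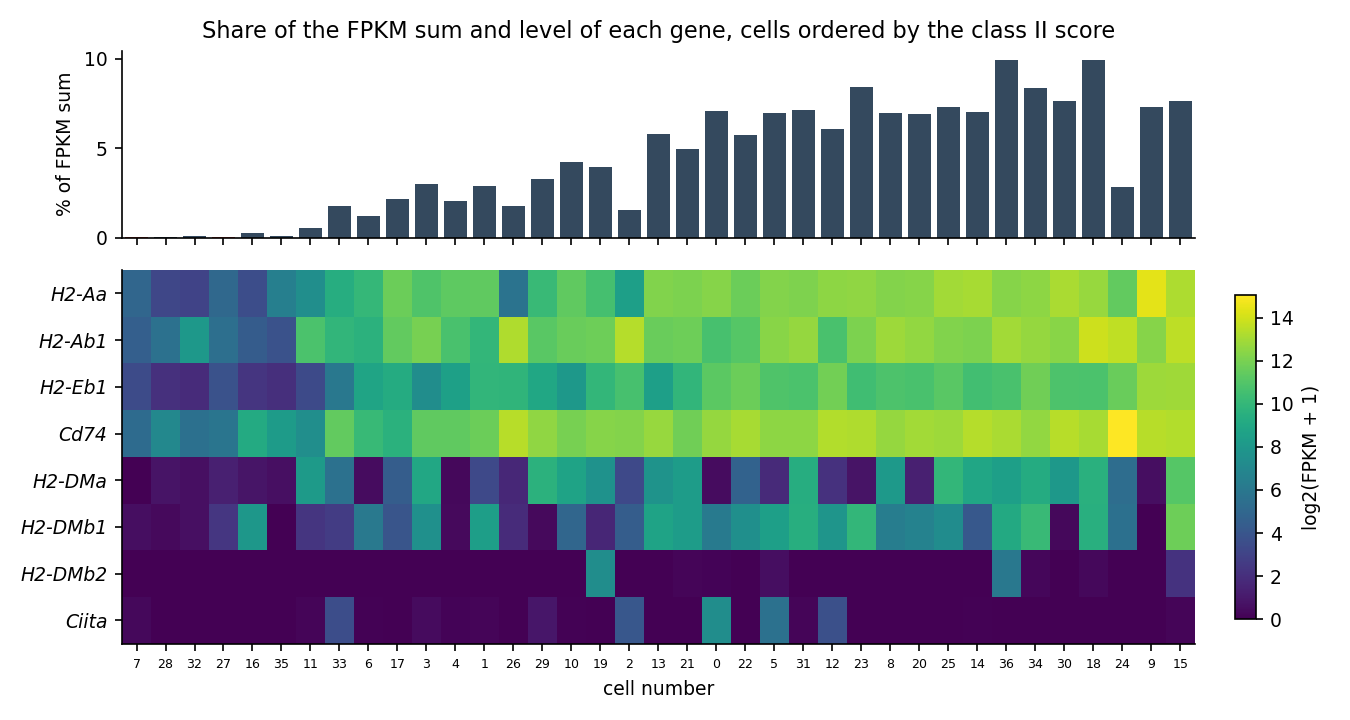
The 37 cells ordered by the class II score, the mean z value of log2(FPKM + 1) of H2-Aa, H2-Ab1, H2-Eb1 and Cd74. Bars give the percent of the FPKM sum of a cell in the 8 genes (red for cells 7 and 27), and colours give log2(FPKM + 1) of each gene. The share spans 0.0187% to 9.95%, and Ciita and H2-DMb2 are near 0 in most cells.

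Within a cell, Cd74 was the highest of the 4 genes in 24 cells, H2-Ab1 in 9 and H2-Aa in 4, while H2-Eb1 was the lowest in 30. FPKM are per length, so levels of different genes can be set side by side. The ratio of H2-Aa to H2-Ab1, the chains that pair in I-A, had a median of 0.859 with quartiles of 0.497 and 1.51. It lay within 2-fold of 1 in 21 of 37 cells and above 1 in 16. Cd74 exceeded H2-Ab1 in 27 cells (median ratio 1.48) and H2-Aa in 33 (median ratio 1.41). H2-Eb1 lay below H2-Aa in 34 cells, at a median ratio of 0.356.

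A few cells held 1 chain of I-A far above the other. Cell 26 had H2-Aa at 51.1 FPKM and H2-Ab1 at 9626, a ratio of 0.00530, with H2-Eb1 at 904 and Cd74 at 11195. Cell 2 had H2-Aa at 362 FPKM and H2-Ab1 at 10436. Cell 11 had H2-Aa at 170 FPKM, H2-Ab1 at 1781, H2-Eb1 at 9.26 and Cd74 at 173. Cell 32 had H2-Aa at 7.29 FPKM and H2-Ab1 at 261, a ratio of 0.0279. Cells 26, 2 and 11 are among the 7 with the highest low values and cell 32 is not. Whether low values moved the ratio was not tested. The opposite case was cell 35, with H2-Aa at 89.1 FPKM, H2-Ab1 at 12.7 and Cd74 at 301, a ratio of 7.02. In cell 16, Cd74 stood at 585 FPKM with H2-Aa at 10.9 and H2-Ab1 at 19.8. Where both chains were at 100 FPKM or more (30 cells), the median ratio of H2-Aa to H2-Ab1 was 0.905.

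H2-DM was less abundant than the chains it loads and was not detected in every cell. H2-DMa was at 1 FPKM or more in 27 cells (73.0%, exact Clopper-Pearson 95% interval 55.9% to 86.2%), with a median of 25.1 FPKM, quartiles of 0.7996 and 355, and 2171 FPKM in cell 15. Its median was 40.3 FPKM without cells 7 and 27, 14.6 in cells 0 to 19 and 40.3 in cells 20 to 36. H2-DMb1 was detected in 29 cells (78.4%, interval 61.8% to 90.2%), with a median of 65.5 FPKM, quartiles of 2.54 and 313, and 3394 FPKM in the same cell 15, which also had the highest H2-Eb1. The median of H2-DMb1 was 73.7 FPKM without cells 7 and 27, and 69.6 and 45.7 in cells 0 to 19 and 20 to 36. Over all genes 4.03% were detected in at least 19 cells, and 6 of the 8 class II genes were. Where detected, H2-DMa stood at a median of 0.0573 of H2-Aa, and H2-DMb1 at 0.0483 of H2-Ab1.

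Both subunits of H2-DM were detected in 25 cells, H2-DMa alone in 2, H2-DMb1 alone in 4 and neither in 6. Cell 29 had H2-DMa at 797 FPKM with H2-DMb1 at 0.329, and cell 23 had H2-DMb1 at 1006 FPKM with H2-DMa at 0.709. Of the 6 cells with neither, 4 (7, 28, 32 and 35) were among the 7 with the lowest class II share. Cell 9 was another of the 6: its H2-Aa was the highest of all, while H2-DMa stood at 0.485 FPKM and H2-DMb1 was listed at 0. Over the 25 cells with both, the ratio of H2-DMa to H2-DMb1 had a median of 0.882, ranged from 0.00703 to 99.2 and lay within 2-fold of 1 in 9.

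H2-DMb2, the other beta chain, was detected in 3 cells (8.11%, interval 1.70% to 21.9%), at 168 FPKM in cell 19, 62.8 in cell 36 and 3.69 in cell 15, and was listed at 0 in 29. At 0.1 FPKM it was in 8 cells and at 5 FPKM in 2. Its transcripts share 369 stretches of 50 bases with H2-DMb1, 27.2% of the stretches of H2-DMb1 and 21.2% of those of H2-DMb2, so reads could be split between them and both values are uncertain to that extent. Its promoter stretch, shown above, matches that of H2-DMb1 at 67 of 77 bases, while their medians were 0 and 65.5 FPKM.

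Ciita, the coactivator, was detected in 5 cells (13.5%, interval 4.54% to 28.8%): cell 0 at 168 FPKM, cell 5 at 47.8, cell 2 at 15.9, cell 12 at 11.97 and cell 33 at 10.6. It was listed at 0 in 18 cells, and the next highest value was 0.869 FPKM. With detection set at 0.1 FPKM it was in 13 cells. By class II score these 5 cells ranked 17, 15, 20, 13 and 30 from the top of 37, so none was among the 10 highest. In the other 32 cells Ciita was under 1 FPKM, with a value above 0 in 14 and listed at 0 in 18. Depth is unknown, so neither a 0 nor a value under 1 FPKM settles whether a cell expressed it.

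Of the 8 promoter factors that act with Ciita, 5 were measured (in at least 5 cells), as were 19.6% of all genes, and none was in 19 cells or more, as 4.03% of all genes were: Creb1 in 9 cells, Nfyb in 8, Nfya, Rfxank and Atf1 in 5 each, Nfyc in 2, and Rfx5 and Rfxap, subunits of RFX, in 1 each. Of the 10 genes that act on Ciita induction, 9 were measured and 5 were in at least 19 cells, against the same 19.6% and 4.03% of all genes. Ifngr1, a chain of the interferon gamma receptor, and the kinase Jak1 were each in 28 cells, Spi1 (PU.1) in 22, Irf2 in 20 and Ifngr2 in 19. The feedback inhibitor Socs1 was in none (highest value 0.889 FPKM). Of 7 interferon gamma targets, 2 were measured and none was in 19 cells or more, against the same 19.6% and 4.03% of all genes. Psmb8, a subunit of the immunoproteasome, was in 18 cells, Psmb9 in 5, Tap1 in 4, and Gbp2 and Gbp3 in 2 each. Cxcl9 and Iigp1 were in none. By counting error alone, 0 of 37 leaves up to 8.11% of cells at 1 FPKM or more, which sets no limit on cells that express the gene. No measured gene of these 3 lists reached a rho of 0.5 or of -0.5 with the class II score. Of all measured genes only 0.234% and 0.682% did, so none in lists this short is near the share of all genes.

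**Figure D3:**
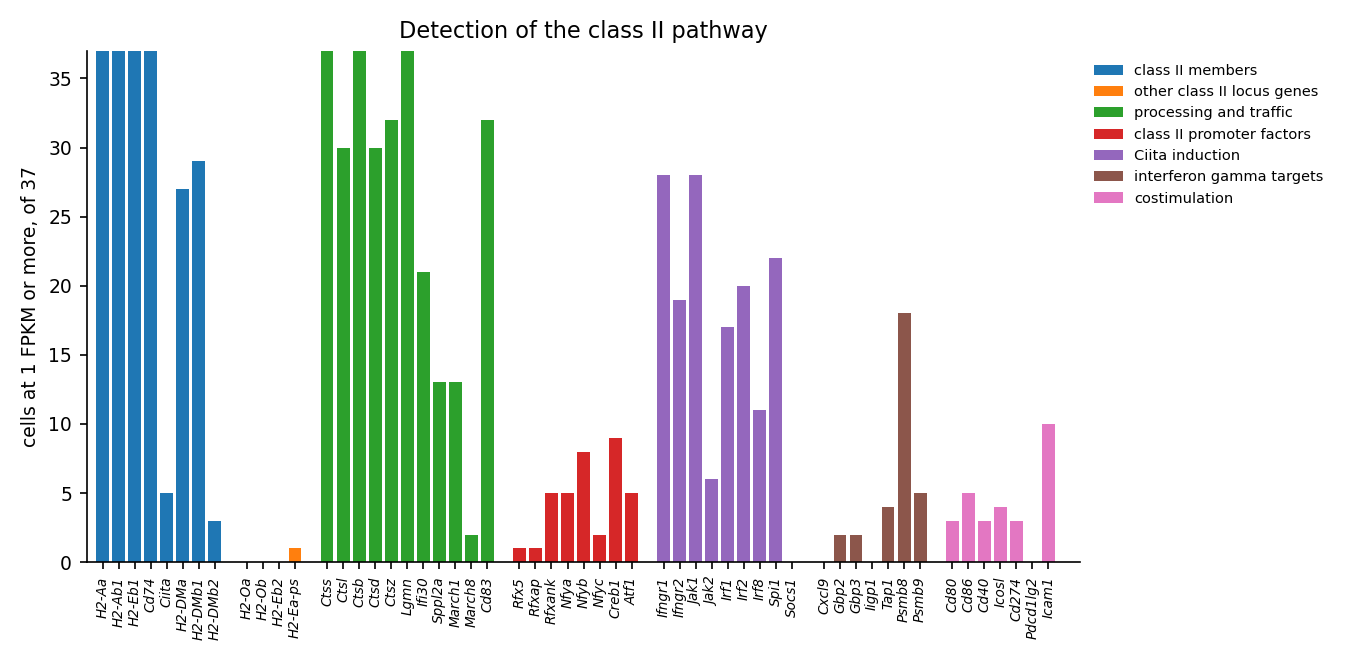
Number of the 37 cells with genes of the class II pathway at 1 FPKM or more, grouped by list. The chains and Cd74 reach 37 cells, as do the cathepsins Ctss and Ctsb and the protease Lgmn, while Ciita (5 cells) and the promoter factors (1 to 9 cells) are low.

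Most of the listed proteases that cut the invariant chain and antigens were broadly present. Of 11 genes of processing and traffic, 10 were measured, as were 19.6% of all genes, and 8 were in at least 19 cells, as were 4.03%. Ctss, cathepsin S, was in all 37 cells at a median of 1310.8 FPKM, and Ctsb (629 FPKM) and Lgmn (293 FPKM) were too. Ctsz was in 32 cells, Ctsd and Ctsl in 30 each, and Ifi30, the thiol reductase GILT, in 21. Sppl2a, another protease of this list, was in only 13 cells, at a median of 0.0269 FPKM, and was listed at 0 in 15. March1, a ligase that sends class II molecules to degradation, was in 13 cells and March8 in 2. Ctss had a rho of 0.17 with the class II score, so its level did not follow that of the chains. Of the 7 costimulatory genes 2 were measured and none was in 19 cells or more, against 19.6% and 4.03% of all genes. Cd86 was in 5 cells, Icosl in 4, Cd80, Cd40 and Cd274 in 3 each, and Icam1 in 10. Among the other genes of the class II locus, H2-Oa, H2-Ob and H2-Eb2 were listed at 0 in all 37 cells, as were 51.6% of all genes, and H2-Ea-ps reached 1.08 FPKM in 1 cell. The H2-Eb2 window also holds the motif pair.

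The 4 abundant genes varied together over the cells. Over 37 cells the Spearman rho of log2(FPKM + 1) was 0.82 for H2-Aa with H2-Eb1, 0.79 for H2-Eb1 with Cd74, 0.76 for H2-Aa with Cd74, 0.72 for H2-Ab1 with Cd74, 0.68 for H2-Ab1 with H2-Eb1 and 0.60 for H2-Aa with H2-Ab1. Of all pairs of measured genes (1 FPKM or more in at least 5 cells, 19.6% of genes), 0.269% reached 0.5, at a mean rho of 0.029. The points of a correlation share the library, depth and scaling of their cell. All 6 pairs stayed at 0.5 or more without cells 7 and 27 (0.54 to 0.79), in cells 0 to 19 (0.56 to 0.89), in cells 20 to 36 (0.52 to 0.80), and without the 7 cells with the highest low values (0.66 to 0.91). H2-DMa and H2-DMb1 followed the 4 genes less closely, at 0.29 to 0.55, and each other at 0.44. Ciita gave -0.17 to 0.11 with the other measured genes. Over the 21 pairs of the 7 measured genes the mean rho was 0.365, and 7 reached 0.5. H2-Ab1, H2-Aa and H2-Eb1 are neighbours on chromosome 17, as are H2-DMa, H2-DMb2 and H2-DMb1, whereas Cd74 and Ciita lie on other chromosomes.

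**Figure D4:**
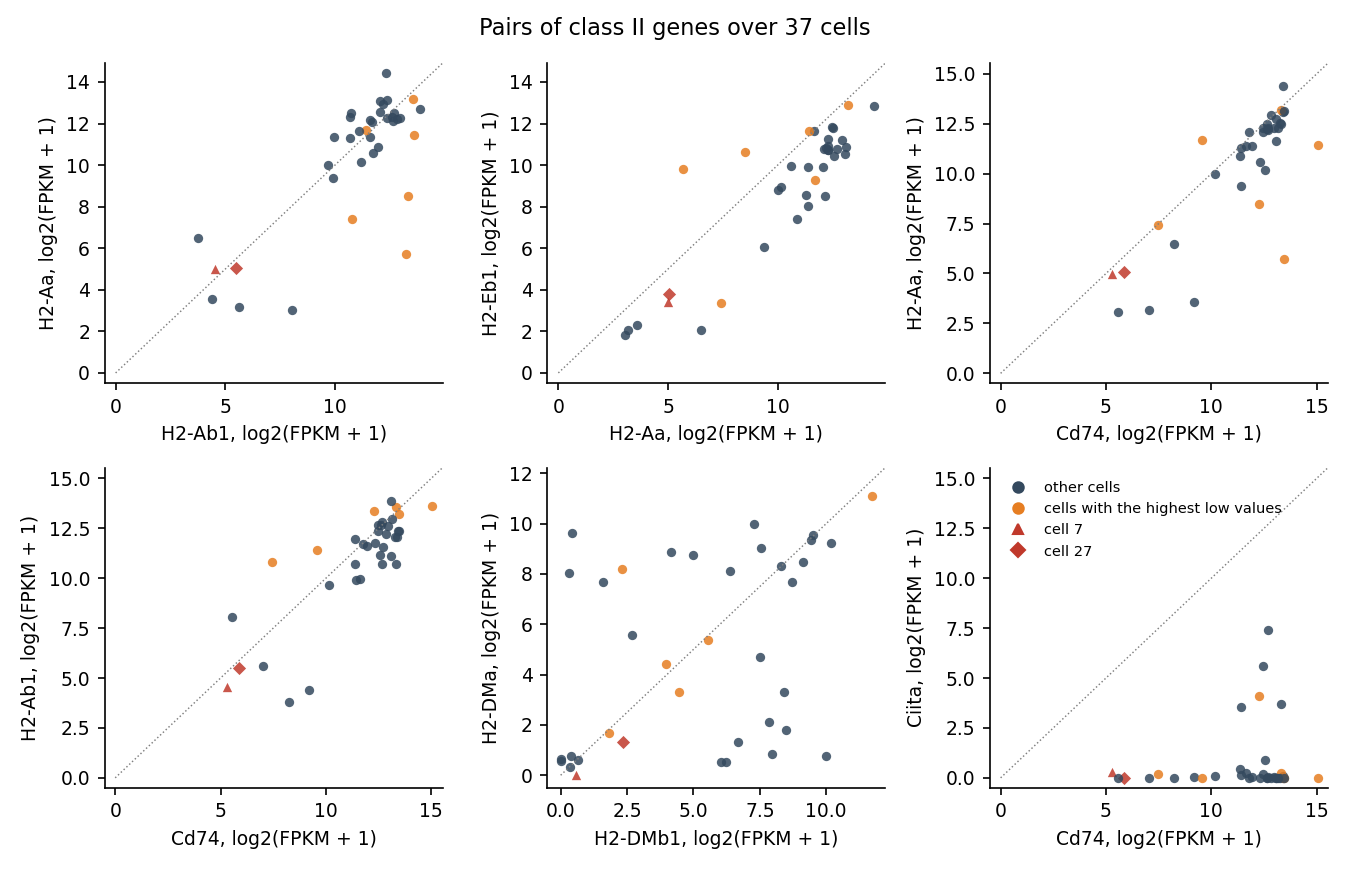
Pairs of class II genes in the 37 cells, both axes log2(FPKM + 1), with a dotted line where levels are equal. Each point is a cell, coloured as in the plot of levels by gene. H2-Aa follows H2-Eb1 (rho 0.82) more closely than H2-DMa follows H2-DMb1 (rho 0.44), and Ciita lies under 1 FPKM in 32 of the 37 cells.

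Every measured gene was compared with the class II score, a score gene with the score made without it. H2-Eb1 (rho 0.84), Cd74 (0.80) and H2-Aa (0.76) ranked 1 to 3 of 4694 genes and H2-Ab1 (0.68) ranked 5. H2-DMa ranked 15 (0.47), H2-DMb1 21 (0.45) and Ciita 3194 (-0.18). Of all measured genes 0.234% reached 0.5, and 0.682% lay at -0.5 or below. The 4 class II genes that reached 0.5 are those that make up the score. The other measured class II genes, H2-DMa, H2-DMb1 and Ciita, did not reach it. The share of class II genes at 0.5 is therefore not set against that of all genes. The score was lower in cells with more genes detected (rho -0.50, Pearson r -0.63; rho -0.42 without cells 7 and 27, -0.68 in cells 0 to 19 and -0.25 in cells 20 to 36).

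The gene outside the 8 with the highest rho with the class II score, which is made of 4 of them, was Cd83. It ranked 4 (rho 0.71). CD83 is a surface protein that keeps class II molecules from March1 and is a marker of activated antigen-presenting cells. Cd83 was detected in 32 cells, from 0.308 FPKM through a median of 13.4 to 1500.3 in cell 23. In 13 cells it was at 100 FPKM or more; their class II scores were 0.14 to 0.97, on a scale that ran from -2.03 to 0.97, and their H2-Aa was at least 2646 FPKM. In the 7 cells with the lowest scores, Cd83 stood between 0.391 and 6.00 FPKM. High scores also occurred with low Cd83: cell 24 (score 0.91) had 13.4 FPKM, cell 30 (0.71) 13.1 and cell 5 (0.55) 2.08. Cd83 was picked by its rho in these same cells, so these levels restate that rho. Its rho was 0.67 without cells 7 and 27, 0.65 in cells 0 to 19, 0.78 in cells 20 to 36, and 0.61 with the number of detected genes removed. Its Pearson r was 0.59, or 0.55 once the 2 cells with the most distant scores were left out.

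In order of rho, the next genes outside the 8 were Kdm6b, a histone H3K27 demethylase (rho 0.60, 28 cells), Zfand2b (0.53, 5 cells), Csrnp1 (0.52, 13 cells) and Btbd1 (0.52, 6 cells). Then came Il1b, which encodes interleukin 1 beta (0.52, 8 cells), Tmem109 (0.50, 6 cells) and Ccrl2, a chemerin-binding receptor (0.496, 9 cells). Cxcl2, a neutrophil chemokine detected in 32 cells, had 0.48, Tmem176b 0.47 (31 cells) and Rel, an NF-kappaB subunit, 0.45. Genes in few cells give weak ranks, so those in under 10 cells are named only because the rule took them. At the other end stood Ndufs6, a subunit of respiratory complex I (rho -0.67, 19 cells), Nck2 (-0.66, 7 cells) and Pon2 (-0.65, 14 cells). Mbp (-0.63, 6 cells), Pdcd6 (-0.60, 16 cells) and Serpinb6a (-0.58, 26 cells) came next. Genes at -0.5 or below numbered 32, and 6 once the number of detected genes was removed.

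**Figure D5:**
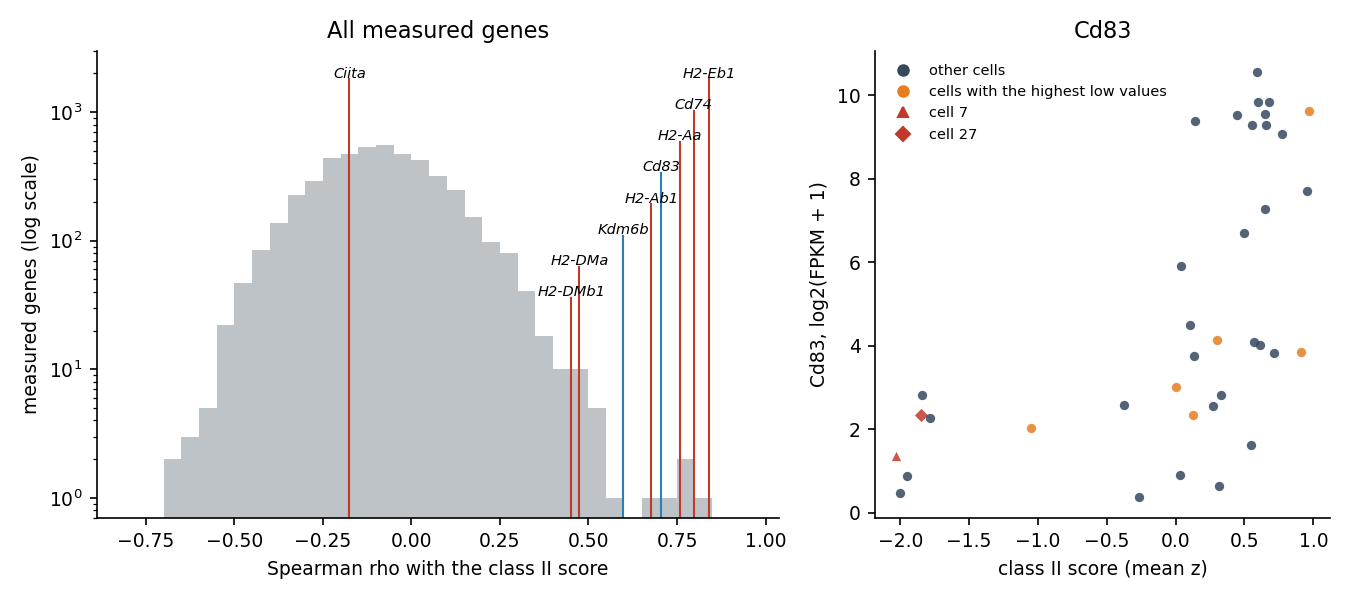
Left, the number of measured genes (log scale) by Spearman rho with the class II score over 37 cells, with class II genes in red and Cd83 and Kdm6b in blue. Right, Cd83 as log2(FPKM + 1) against the score, each point a cell. H2-Eb1, Cd74, H2-Aa, Cd83 and H2-Ab1 stand at the right end, between 0.68 and 0.84, and Ciita lies at -0.18.

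Class II genes are also made by dendritic and B cells, so their markers were read in the same cells. Of 9 dendritic cell markers 4 (Flt3, Xcr1, Clec9a and Ccr7) were listed at 0 in all 37 cells, as were 51.6% of all genes. Zbtb46 stayed under 1 FPKM. Batf3 was detected in 16 cells, and Cd209a and Itgax in 4 each. The summed level of the 9 markers ran from 0 to 969 FPKM with a median of 0.806. Cell 18, with the highest H2-Ab1 and the highest class II share, held 3 of the 9 (Batf3, Cd209a at 118 FPKM and Itgax at 8.83), and ranked 4 by class II score. Without cell 18 the mean rho of the measured class II genes was 0.364. Of 6 B cell markers 4 were listed at 0 in all cells, Cd79a, Ms4a1 and Pax5 among them, against the same 51.6% of all genes. Only Ebf1 was detected, in 3 cells, with its highest value (15.4 FPKM) in cell 27, which held 8 of 8 fibroblast markers. The rho of the 12 macrophage markers with the class II score lay between -0.15 and 0.32, with C1qb at 0.32. Without cells 7 and 27 it lay between -0.23 (Emr1) and 0.21 (C1qb).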

How the data were processed

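Single-cell RNA was measured in 37 cells with the same labels. The deposited values are FPKM, made by the authors with STAR alignment to mm9 and Cuffnorm, per the submitters' processing notes; tool versions, annotation and settings: not given in the sources used here. FPKM are not counts, so no count model was used. Values were taken as log2(FPKM + 1), with a pseudocount of 1. Detection meant 1 FPKM or more, and genes detected in 5 or more cells were called measured. Cells are not replicates, so there are no p-values or standard errors. Clopper-Pearson 95% intervals of shares of cells cover the counting of cells and nothing between animals. A count of 0 was taken to allow 3 counts of the total. The named genes were all 8, the genes of 12 lists (96 genes), the 15 highest and 10 lowest by rho with the class II score, and the 5 most like H2-DMa, H2-DMb1 and Ciita. Members and lists were chosen with earlier results of these data known. Promoter sequences came from RefSeq and shared stretches from GENCODE transcripts. Scripts (Python 3.11.15, pandas 2.3.3, numpy 2.4.6, scipy 1.17.1) were tested on simulated data. Alternatives changed the pseudocount, filters, correlation, scaling and cells used. Values of 2 genes of the lists are not reported here.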

Additional observations from a re-analysis of the deposited data

How the results depend on the processing

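The mean rho of the measured class II genes (0.365 over 37 cells) moved to 0.534 when genes had to be detected in 10 cells, which leaves out Ciita and so 6 of the 21 pairs, and lay between 0.316 and 0.457 otherwise. The number of genes at rho 0.5 or more with the class II score (11) moved to 7 with Pearson's r, 7 with the filter of 10 cells, 32 in cells 0 to 19 and 73 in cells 20 to 36, where fewer cells enter, and was 8 to 13 otherwise. The median share of the FPKM sum was 4.11% to 5.77%, and the median ratio of H2-Aa to H2-Ab1 0.738 to 1.06. At 0.1 FPKM, H2-DMa was detected in 36 cells, H2-DMb1 in 35 and Ciita in 13; at 5 FPKM, H2-Eb1 was in 33; with FPKM rescaled to a common sum, H2-DMa was in 34. Leaving out the 7 cells with the highest low values, or cell 18, was chosen after seeing the data. No paired analysis was possible because there is 1 group and no comparison between groups. Depth per cell is unknown, so a low gene such as Ciita or Rfx5 may be missed where it is expressed.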

Other observations

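Beyond the class II score, the genes most like single members were read by the same rule. H2-DMa was followed most closely by Ctsh, a lysosomal cathepsin (rho 0.60 over 37 cells, 0.62 without cells 7 and 27, detected in 29 cells), then by Tnfaip3, a feedback inhibitor of NF-kappaB (0.55, 16 cells), and H2-Ab1 (0.55). H2-DMb1 was followed by Trex1 at 0.49, with no gene at 0.5 or more. The 5 genes most like Ciita, led by Dhx40 (0.62, 11 cells), rest on ranks in which 18 of the 37 cells are tied at 0 for Ciita.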
